A study of Mus musculus with 8 samples.

Results

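Autophagy delivers cytoplasm, protein aggregates and whole organelles to the lysosome, and 37 mouse genes that encode its machinery, its mitochondrial receptors and the lysosome it ends in were followed here in hearts whose muscle cells lacked RNase H1. The genes were taken by name among the protein-coding rows of a table that lists 54508 genes, 22033 of them protein-coding. All 37 were found, and all 37 passed the filter on low values, a mean of at least 10 normalised counts over the 8 libraries.

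Total RNA from hearts of 24-week-old C57BL/6 mice had been sequenced, with 4 *Rnaseh1* knockout and 4 wild type hearts. In the knockout, exon 2 of *Rnaseh1* was flanked by loxP sites and removed by Cre under the muscle creatine kinase promoter (Ckmm), so that the gene was lost in heart and skeletal muscle cells and kept in the other cells of the heart. The labels name the other group RNase H1+/+, whereas the study elsewhere marks its controls as floxed mice without Cre. Under either description, what Cre alone does in these hearts and what the missing enzyme does cannot be told apart. RNase H1 cuts RNA that is paired with DNA and is needed to copy mitochondrial DNA (mtDNA). Each group is 1 genotype at 1 age, and nothing here separates early from late events.

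In macroautophagy, the ULK1 kinase complex and the Beclin 1 lipid kinase complex start a cup-shaped membrane. A pair of ubiquitin-like conjugation systems, 1 of them ending in the ATG12-ATG5-ATG16L1 complex, attach ATG8 proteins (the LC3 and GABARAP families) to that membrane, and cargo receptors bind both ubiquitin and ATG8. Mitophagy is the removal of mitochondria by the same route, marked either through the kinase PINK1 or by receptors that sit in the outer mitochondrial membrane. The closed vesicle fuses with a lysosome, where cathepsins and other hydrolases digest the content. TFEB and TFE3 are transcription factors that activate lysosomal and autophagy genes when mTORC1, the nutrient-sensing kinase on the lysosome, is inactive. The heart depends on the pathway to turn over its many mitochondria, and the amount of an mRNA does not give the rate of autophagy, because some of these proteins are consumed with their cargo.

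The libraries held 27429878 to 30505752 counted read pairs in knockout and 31810103 to 40715847 in wild type, but only 9.46 to 12.3% of the knockout pairs came from mtDNA, against 60.2 to 62.6% of the wild type pairs. Depth on nuclear genes was thus higher in knockout, at 24835342 to 27146119 pairs, against 11896021 to 16213429 in wild type. Normalised counts are read pairs divided by 1 size factor per library, and 1 read pair was worth 0.630 to 0.696 normalised counts in knockout and 1.23 to 1.73 in wild type. *Rnaseh1* itself had 145 to 182 normalised counts in knockout and 129 to 158 in wild type, a change of 0.23 (adjusted p = 0.114, limma-trend), so that the count over the whole gene was not lower in the hearts labelled knockout. Reads on the deleted exon 2 were not counted apart, and these values do not check the deletion. Knockout replicate 3 stood farthest from its group, with an SD of its log2 deviations of 0.433 over all genes, against 0.240 to 0.324 in the other knockout libraries and 0.270 to 0.294 in the wild type libraries. That library was the highest of its group for 20 of the 37 members.

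Differences are given as the change in log2(normalised count + 1), knockout minus wild type, with its standard error (SE, n = 4 per group), and were tested with limma-trend across 17046 genes. A gene is called where the Benjamini-Hochberg adjusted p is under 0.05. The knockout differed from wild type across the transcriptome, with 59.1% of the tested genes called, of which higher genes made 30.7% and lower genes 28.4% of all tested, and with groups that did not overlap for 54.7%. Against that background, 27 of the 37 members were called (73.0%), 15 higher and 12 lower, and the knockout and wild type libraries did not overlap for 26. The median change of the members was 0.10, against 0.02 for all genes tested, and their median absolute change was 0.40, against 0.47. Only 4 members changed by at least 2-fold, namely *Sqstm1*, *Ctsl* and *Ctsd*, which were higher, and *Pink1*, which was lower. Over all 17046 genes tested, 1965 were called at least 2-fold higher and 1838 at least 2-fold lower.

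**Figure D1:**
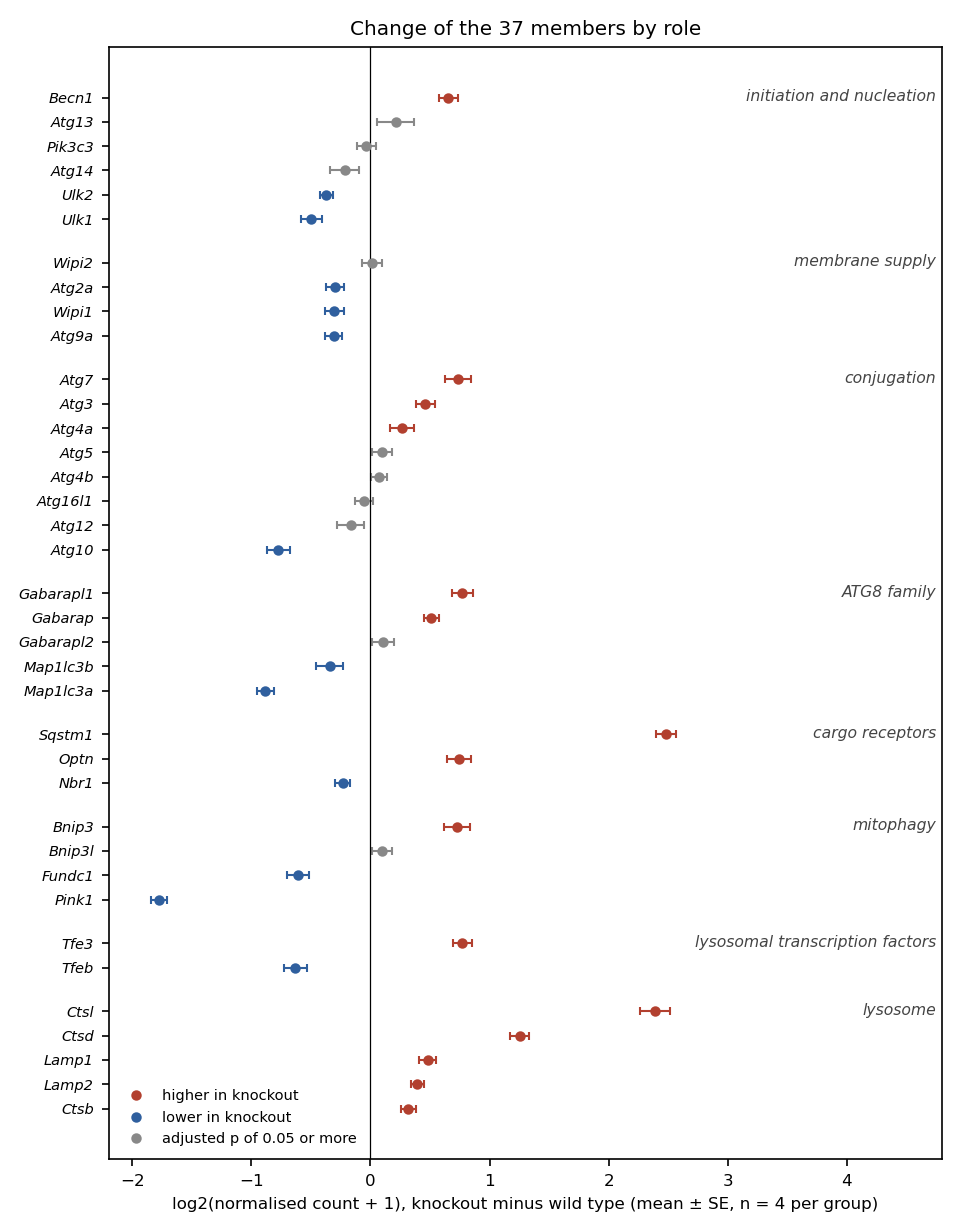
Change in log2(normalised count + 1), knockout minus wild type, for each of the 37 genes (points, with SE, n = 4 per group), grouped by role. All 5 lysosome genes lie right of 0, the 3 called membrane supply genes lie left of it, and *Sqstm1*, *Ctsl* and *Ctsd* on one side and *Pink1* on the other lie beyond a change of 1.

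These directions hold for values scaled by the size factors, which centre the median gene. With every library brought to the same number of nuclear read pairs, the median change of all genes became 0.24, and the calls among the members became 21 higher and 7 lower (7355 and 3268 over all genes, against 5241 and 4839). With totals that include mtDNA the median change became 1.44, and 36 members were called higher and only *Pink1* lower (14952 and 567 over all genes). Relative to these shifts, 26 and all 27 of the member calls stayed, the exception being *Atg4a* under nuclear totals. Taking off a shift puts back the centring on the median gene, so it is not a separate check of the scaling. "Higher" and "lower" below are therefore relative to the median gene. In bulk heart RNA, fewer cells of a type and less RNA per cell cannot be told apart. Cardiomyocyte markers fell for 10 of 10, with a median change of -1.82 and sums of 1522535 to 1841681 normalised counts in knockout and 3836582 to 3995736 in wild type. Macrophage markers rose for 12 of 12, with a median change of 1.71 and sums of 17625 to 21869 in knockout and 6322 to 6996 in wild type, and none of them was at 0. Of the fibroblast markers, 6 of 10 rose and 1 fell. Granulocyte markers rose for all 4 tested of 7, with sums of 283 to 1432 in knockout and 48.1 to 64.6 in wild type, and *Mpo* and *Elane* were at 0. Other cell types showed no common rise. Endothelial markers rose for 1 of 10 and fell for 3, with a median change of 0.02. Mural markers rose for 2 of 10 and fell for 4, with a median change of -0.05. None of 5 erythroid and none of 3 adipocyte markers tested was called. The part of these shifts in the changes below was not tested.

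The genes that start the autophagosome moved in both directions. Of 6 members, 1 rose, 2 fell and 3 were not called. *Becn1* (chr11:101285952-101302286, mm10), which encodes Beclin 1, the scaffold of the lipid kinase complex, had 1600.2, 1554, 1989.5 and 1847 normalised counts in knockout hearts, against 1093, 1114, 1103 and 1112 in wild type hearts. Every knockout heart lay above every wild type heart, and the change was 0.65 ± 0.08 (adjusted p = 5.3e-05). *Ulk1* (chr5:110784488-110810097), which encodes the initiating kinase, had 977, 795, 909 and 772 normalised counts in knockout hearts, against 1222, 1246, 1102 and 1288 in wild type hearts. It was lower in each knockout library, with a change of -0.50 ± 0.09 (adjusted p = 6.7e-04). Its paralog *Ulk2* had 1835, 1806, 1679 and 1820.1 normalised counts in knockout hearts, against 2319.6, 2225, 2347 and 2333 in wild type hearts. The groups were again apart and the change was -0.37 ± 0.05 (adjusted p = 1.5e-04). The ratio of *Ulk1* over *Ulk2* differed between the groups by -0.13 ± 0.11 on the log2 scale, which did not pass (exact permutation p = 0.229, two-sided). The other 3 were not called. *Pik3c3*, the catalytic subunit of the lipid kinase that Beclin 1 binds, had 489.9 to 578 in knockout and 503 to 573 in wild type, a change of -0.04 ± 0.08. *Atg14*, the subunit that directs this kinase to autophagy, had 202 to 253 in knockout and 236 to 307 in wild type, a change of -0.22 ± 0.12. *Atg13*, the adaptor of the ULK complex, had 727 to 1184 in knockout and 629 to 851 in wild type, a change of 0.21 ± 0.15, and the highest value was that of knockout replicate 3.

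Of the 4 members that bring lipid and membrane to the growing vesicle, 3 were lower and *Wipi2* was not called. The share lower over all genes tested was 28.4%. Under equal nuclear totals none of the 4 was called lower and *Wipi2* was called higher (change 0.24, adjusted p = 0.0285). *Atg9a* (chr1:75180860-75192196), the scramblase of the seed vesicles, had 974, 896, 1061 and 906 normalised counts in knockout hearts, against 1115, 1231, 1188 and 1217 in wild type hearts. Its change was -0.31 ± 0.07 (adjusted p = 0.00334). A share of 31.8% of its exon bases overlaps the same-strand gene model *Gm29253*, which itself was listed at 1.31 normalised counts in knockout and 1.58 in wild type on average. *Wipi1*, a reader of the lipid that the Beclin 1 complex makes, had 1718, 1747, 1363 and 1564 normalised counts in knockout hearts, against 1899, 1989, 2007 and 1954 in wild type hearts. The change was -0.30 ± 0.08 (adjusted p = 0.00743). *Atg2a*, the lipid transfer protein, had 967, 837, 1021 and 949 normalised counts in knockout hearts, against 1161, 1146, 1097 and 1233 in wild type hearts. Its change was -0.30 ± 0.07 (adjusted p = 0.00535). *Wipi2*, the paralog of *Wipi1* that recruits ATG16L1, was not called, with 1144 to 1413 in knockout and 1165 to 1373 in wild type and a change of 0.01 ± 0.08. The *Wipi1* over *Wipi2* log2 ratio was 0.59, 0.54, -0.05 and 0.24 in knockout hearts, against 0.66, 0.62, 0.55 and 0.75 in wild type hearts. The difference of -0.31 ± 0.15 did not pass (exact permutation p = 0.0571, adjusted over 12 ratios p = 0.0762), and knockout replicate 3 was the lowest library.

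In the conjugation systems 3 of 8 members rose, 1 fell and 4 were not called. *Atg7* (chr6:114643097-114860614), the E1-like enzyme that serves both systems, had 628, 596, 691 and 705 normalised counts in knockout hearts, against 477, 346, 400.2 and 357 in wild type hearts. The groups did not overlap and the change was 0.74 ± 0.11 (adjusted p = 1.9e-04). *Atg3*, the E2-like enzyme that hands ATG8 proteins to the membrane lipid, had 517, 507, 482 and 519 normalised counts in knockout hearts, against 399.9, 375, 372 and 328 in wild type hearts. It was higher in knockout by 0.46 ± 0.08 (adjusted p = 6.0e-04). *Atg10* (chr13:90935356-91223968), the E2-like enzyme of the other branch, which joins ATG12 to ATG5, went the opposite way. It had 187, 211, 181 and 208 normalised counts in knockout hearts, against 299, 335, 362 and 352 in wild type hearts. Its change was -0.77 ± 0.10 (adjusted p = 5.9e-05), so that the E2-like enzymes of the ATG8 and ATG12 branches moved apart while the E1-like enzyme they share was higher.

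*Atg4a*, a protease that trims ATG8 proteins, passed narrowly. It had 299, 328, 400.1 and 374 normalised counts in knockout hearts, against 295, 288, 279.6 and 299 in wild type hearts. The libraries did not overlap, but the change of 0.26 ± 0.10 had an adjusted p of 0.0459 that exceeded 0.05 when any library other than knockout replicate 1 was left out (changes of 0.20 to 0.29, adjusted p from 0.0532 to 0.118). *Atg4b*, the main protease of this family, had 648 to 736 in knockout and 631 to 689 in wild type, and *Atg5* had 336 to 360.0 in knockout and 296 to 353 in wild type, with changes of 0.07 and 0.10, neither called. *Atg16l1*, which places the conjugation machinery on the membrane, had 920.0 to 1087 in knockout and 935 to 1078 in wild type, a change of -0.06. *Atg12* had 484 to 691 in knockout and 591 to 715 in wild type, a change of -0.16. Without knockout replicate 3, its highest knockout library, *Atg12* became lower (change -0.25, adjusted p = 0.038).

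In the ATG8 family both LC3 genes were called lower, 2 of the 3 GABARAP genes were called higher and 1 was not called. The share called was 80.0%, against 59.1% of all genes tested. *Map1lc3a* (chr2:155276297-155278073), which encodes LC3A, had 3267, 3198, 3808 and 3076 normalised counts in knockout hearts, against 5979, 5927, 6269.6 and 6359 in wild type hearts. Each knockout heart was below each wild type heart, with a change of -0.88 ± 0.07 (adjusted p = 1.9e-06). *Map1lc3b*, the gene of the widely used marker protein LC3B, had 2016, 2146, 2994 and 2489.6 normalised counts in knockout hearts, against 2713, 3029.9, 3133 and 3246 in wild type hearts. Its groups overlapped, since knockout replicate 3 lay inside the wild type range, and the change of -0.34 ± 0.11 (adjusted p = 0.0248) was not called without knockout replicate 1 or 2 or without wild type replicate 2, 3 or 4 (changes of -0.34 to -0.26, adjusted p from 0.0547 to 0.0707) nor with equal nuclear totals. *Gabarapl1* (chr6:129533160-129542346) had 2371, 2172, 2698 and 2768 normalised counts in knockout hearts, against 1306, 1501, 1469 and 1568 in wild type hearts. Its change was 0.77 ± 0.09 (adjusted p = 3.1e-05). *Gabarap* had 3572, 3793, 4236 and 4103 normalised counts in knockout hearts, against 2762, 2671, 2759 and 2794 in wild type hearts. This was higher in each knockout library, by 0.51 ± 0.06 (adjusted p = 4.5e-05). *Gabarapl2* had 639, 657, 824 and 759 normalised counts in knockout hearts, against 636, 704, 647 and 679 in wild type hearts. The groups overlapped and the change of 0.10 ± 0.09 was not called.

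Levels were compared between genes per kilobase of exon, counting every base that any annotated exon of the gene covers. That length was 7517 bases for *Map1lc3b*, against 1181 to 2325 for the rest of the family. The order and the shares below depend on these lengths. Before division, *Map1lc3b* averaged 3031 normalised counts in wild type, against 2746 for *Gabarap*, and 2411 in knockout, against 3926. On the per-kilobase scale the order was *Map1lc3a*, *Gabarap*, *Gabarapl1*, *Map1lc3b*, *Gabarapl2* in both groups. *Map1lc3a* averaged 2826 ± 274 normalised counts per kb in knockout and 5193 ± 180 in wild type (SD, n = 4 each), 41.4% of the summed family level in knockout and 64.1% in wild type. *Gabarap* held 31.2% in knockout and 18.4% in wild type, and *Gabarapl1* held 18.2% in knockout and 8.96% in wild type. The lowest pair in the order, *Map1lc3b* at 321 ± 58.1 and *Gabarapl2* at 310 ± 37.5 per kb in knockout, did not differ beyond their spread. *Map1lc3a* thus took a smaller share of the family in knockout and *Gabarap* and *Gabarapl1* took larger ones, though *Map1lc3a* stayed first. How reads from paralogs or processed copies were assigned was not checked.

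Cargo receptors held the largest change of all members. *Sqstm1* (chr11:50199366-50210827) encodes p62, the receptor that carries ubiquitinated cargo to LC3 and that also binds KEAP1, the inhibitor of the oxidative stress factor NRF2. It had 38516, 33528, 35233 and 41421 normalised counts in knockout hearts, against 5864, 6547, 7175 and 7020.1 in wild type hearts. No knockout value came near the wild type range, and the change was 2.48 ± 0.08 (adjusted p = 6.2e-09). *Optn*, the gene of optineurin, a ubiquitin-binding receptor that acts on damaged mitochondria, had 3123, 2773, 3817 and 3394 normalised counts in knockout hearts, against 1742, 1841, 2127 and 2087 in wild type hearts. The change was 0.74 ± 0.10 (adjusted p = 1.1e-04). *Nbr1*, the receptor that resembles p62 in its domains, had 3120.3, 3145, 3677 and 3395 normalised counts in knockout hearts, against 3899.5, 3828, 3818 and 4116 in wild type hearts. It was lower, with a change of -0.23 ± 0.06 (adjusted p = 0.00915), a call lost under equal nuclear totals. The log2 ratio of *Sqstm1* over *Nbr1* was 3.63, 3.41, 3.26 and 3.61 in knockout hearts, against 0.59, 0.77, 0.91 and 0.77 in wild type hearts. This ratio does not depend on how libraries are scaled, and it differed by 2.72 ± 0.11 (exact permutation p = 0.0286, two-sided, the smallest that 4 against 4 can give).

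The mitophagy members did not move together, with 1 higher, 2 lower and 1 not called (75.0% called, against 59.1% of all genes tested). *Pink1* (chr4:138313409-138326307) encodes the kinase that accumulates on damaged mitochondria and marks them with phosphorylated ubiquitin. It had 4006, 4001, 4601 and 4280.1 normalised counts in knockout hearts, against 13381, 14095, 15481 and 14983 in wild type hearts. All knockout libraries lay far below the wild type ones, with a change of -1.78 ± 0.07 (adjusted p = 1.2e-08), and it was the only member lower under every scaling. Of its exon bases, 6.70% overlap same-strand models that had no counts. Cardiomyocyte markers fell in the same libraries, with a median change of -1.82. Under equal library totals 6 of those 10 markers were still called lower and 2 were called higher. The part of the cardiomyocyte shift in the value of *Pink1* was not tested. *Fundc1*, an outer membrane receptor linked to hypoxia, had 358, 417, 332 and 416 normalised counts in knockout hearts, against 550.2, 595, 587 and 584 in wild type hearts. Its change was -0.61 ± 0.09 (adjusted p = 1.9e-04). *Bnip3* (chr7:138890836-138909519), a hypoxia-inducible receptor of the outer membrane, had 3211, 3549, 4150.4 and 4256 normalised counts in knockout hearts, against 2011, 2139, 2347 and 2661 in wild type hearts. It was higher in each knockout heart, by 0.73 ± 0.11 (adjusted p = 2.1e-04). Its paralog *Bnip3l*, which encodes NIX, had 1116, 1125, 1423 and 1348 normalised counts in knockout hearts, against 1126, 1187, 1165 and 1188 in wild type hearts. The groups overlapped and the change of 0.10 ± 0.09 was not called. The *Bnip3* over *Bnip3l* ratio differed by 0.63 ± 0.08 on the log2 scale (exact permutation p = 0.0286), with no overlap.

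**Figure D2:**
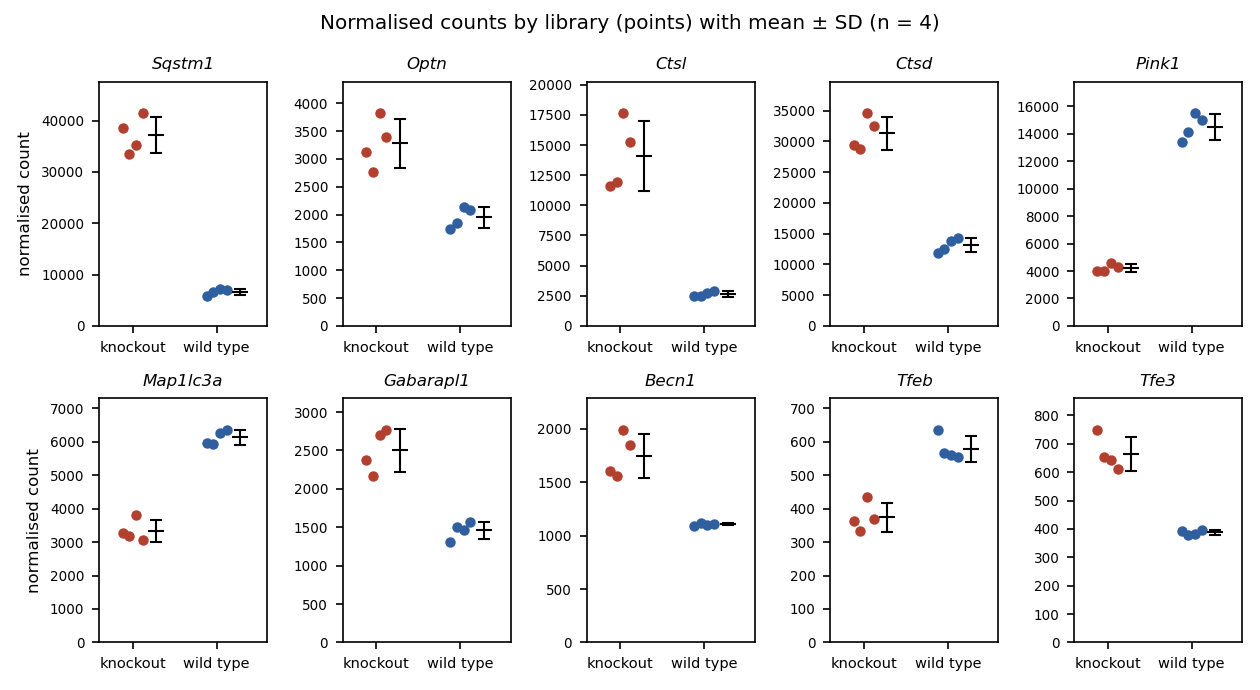
Normalised counts of selected members in each library (linear axes from 0), knockout on the left and wild type on the right of each panel, with points for the 4 libraries and the mean ± SD beside them. *Sqstm1*, *Optn*, *Ctsl*, *Ctsd*, *Gabarapl1*, *Becn1* and *Tfe3* sit higher in all 4 knockout hearts, *Pink1*, *Map1lc3a* and *Tfeb* sit lower, and the groups overlap in none of the 10 panels. These 10 are all among the 26 of 37 members without overlap, and 54.7% of all genes tested had none.

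The transcription factors of the lysosome changed in opposite directions. *Tfeb* (chr17:47737030-47792419) had 362, 333, 436 and 369 normalised counts in knockout hearts, against 636, 568, 559 and 554 in wild type hearts. It was lower in knockout, with a change of -0.63 ± 0.09 (adjusted p = 2.1e-04). *Tfe3* (chrX:7762560-7775202) had 749, 653, 642 and 611 normalised counts in knockout hearts, against 394, 377, 383 and 395 in wild type hearts. It was higher by 0.77 ± 0.08 (adjusted p = 1.2e-05). The log2 ratio of *Tfeb* over *Tfe3* was -1.05, -0.97, -0.56 and -0.73 in knockout hearts, against 0.69, 0.59, 0.54 and 0.49 in wild type hearts. The groups were far apart, and the ratio differed by -1.40 ± 0.12 (exact permutation p = 0.0286).

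All 5 lysosome members were higher in knockout, but by unequal amounts. The share higher over all genes tested was 30.7%. *Ctsl* (chr13:64359337-64370890), the gene of the cysteine protease cathepsin L, had 11609, 11913, 17626 and 15229 normalised counts in knockout hearts, against 2450.4, 2503, 2741 and 2929.9 in wild type hearts. Its lowest knockout value was far above the highest wild type value, and the change was 2.39 ± 0.13 (adjusted p = 1.0e-07). *Ctsd* (chr7:142375911-142388038), the gene of the aspartic protease cathepsin D, had 29368, 28793, 34534 and 32531 normalised counts in knockout hearts, against 11909, 12482, 13829 and 14358 in wild type hearts. The change was 1.25 ± 0.08 (adjusted p = 4.4e-07), and 34.4% of its exon bases are shared with a same-strand model that had no counts. *Ctsb*, the gene of cathepsin B, a cysteine protease like cathepsin L, had 10317, 11564, 11007 and 10819.8 normalised counts in knockout hearts, against 8499.6, 8212, 8888 and 9479 in wild type hearts. It was higher by only 0.32 ± 0.06 (adjusted p = 0.00114). *Lamp1*, which encodes a major glycoprotein of the lysosomal membrane, had 9906, 10316, 12172 and 11446 normalised counts in knockout hearts, against 7637, 7585, 8159 and 7965 in wild type hearts. Its change was 0.48 ± 0.07 (adjusted p = 1.8e-04). *Lamp2*, the other main glycoprotein, whose loss in humans causes a cardiomyopathy, had 4678 to 5341 in knockout and 3689.6 to 3971 in wild type, a change of 0.39 ± 0.06. The *Lamp2* over *Lamp1* ratio differed by -0.08 ± 0.05 on the log2 scale, which did not pass (exact permutation p = 0.143). Cathepsins are abundant in macrophages, whose markers rose as given above, by at least 1.40 each, and the part of those cells in the cathepsin values was not tested.

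TFEB and TFE3 bind a palindrome, CACGTG, that in the lysosomal genes is often extended to TCACGTGA, which contains it. Promoter windows from 250 bases before to 50 bases after the start site (RefSeq, GRCm38.p6) were found for 30 of the 37 members, 35 windows in all since some genes have several, and were searched on both strands. CACGTG stood in 8 of the 35 windows (22.9%), each of a different member, against 7.15% of 32851 windows of all genes. These were *Atg3*, *Atg5*, *Atg7*, *Atg14*, *Bnip3*, *Ctsd*, *Ctsl* and *Lamp1*, of which 6 were higher in knockout and *Atg5* and *Atg14* were not called. Of the other 22 members with a window, 7 were higher, 11 were lower and 4 were not called, and of all genes tested 30.7% were higher. No test was made of this split, since the members were chosen with results known. The share higher among all genes with CACGTG is not given. Of the windows with CACGTG, those of *Atg7* (chr6:114670846-114671145), *Atg14* (chr14:47568385-47568684) and *Ctsl* (chr13:64370471-64370770) lie wholly inside the genes as listed here. Whether their start sites are used in these hearts was not tested. TCACGTGA was in the windows of *Atg3* and *Ctsd* (0.974% of all windows). TGATGNAA, a form of the element read by the stress factor ATF4, was in that of *Ctsl* alone (3.97% of all), and TGACNNNGC, the core of the element read by NRF2, was in those of *Atg13*, *Ctsd*, *Map1lc3b* and *Ulk2* (12.4% of all). None of the 4 motifs was in the windows of *Sqstm1* or *Pink1*, which says only that these letters are not in those windows. Stretches upstream of 4 RefSeq start sites are shown, with the motifs in capitals on the strand of the gene. They hold more than 1 of these motifs or a longer one. They are *Ctsd* at chr7:142387858-142387937 (minus strand), *Lamp1* at chr8:13159091-13159160 (plus), *Ctsl* at chr13:64370661-64370760 (minus) and *Atg3* at chr16:45158729-45158769 (plus). The stretches of *Ctsd* and *Ctsl* lie inside the genes as listed here, which begin at chr7:142388038 and chr13:64370890, upstream of those RefSeq start sites.
Ctsd: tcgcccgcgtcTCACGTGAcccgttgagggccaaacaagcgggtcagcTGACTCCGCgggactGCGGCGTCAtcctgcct
Lamp1: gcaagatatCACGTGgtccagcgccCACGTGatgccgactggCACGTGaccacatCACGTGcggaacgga
Ctsl: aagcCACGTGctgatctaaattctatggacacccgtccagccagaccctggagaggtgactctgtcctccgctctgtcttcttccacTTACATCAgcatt
Atg3: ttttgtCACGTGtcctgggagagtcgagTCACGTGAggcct
In that of *Ctsd*, the capitals mark TCACGTGA and then TGACNNNGC on each strand. In that of *Lamp1* they mark CACGTG, 4 times in 70 bases. In *Ctsl* they mark CACGTG and, on the opposite strand, TGATGNAA, and in *Atg3* CACGTG and TCACGTGA. A match is a description of the letters and not evidence that a factor was bound in these hearts.

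Ratios of members that share a role were compared in 12 pairs, because a ratio within a library is free of the choice of scaling. In 8 of the 12 the groups did not overlap, each at the smallest exact permutation p, 0.0286, which is 0.0429 adjusted over the 12 pairs. The adjusted value follows from how many of the 12 reached that smallest p. Among all single genes tested the groups did not overlap for 54.7%, and no share over other pairs of genes is given. *Ctsl* over *Ctsb* changed most after *Sqstm1* over *Nbr1*, by 2.07 ± 0.15, with log2 ratios of 0.17, 0.04, 0.68 and 0.49 in knockout hearts, against -1.79, -1.71, -1.70 and -1.69 in wild type hearts. Every knockout ratio exceeded every wild type one. The ratios are of normalised counts and not of levels per length, so that only their difference between the groups is read. *Ctsd* over *Ctsb* differed by 0.93 ± 0.08. Within the ATG8 family, *Map1lc3b* over *Map1lc3a* differed by 0.54 ± 0.10, *Gabarapl1* over *Gabarap* by 0.26 ± 0.08 and *Gabarapl2* over *Gabarap* by -0.41 ± 0.06. In the remaining pair beyond those already described, *Atg4a* over *Atg4b*, the difference of 0.19 ± 0.14 did not pass (exact permutation p = 0.2).

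**Figure D3:**
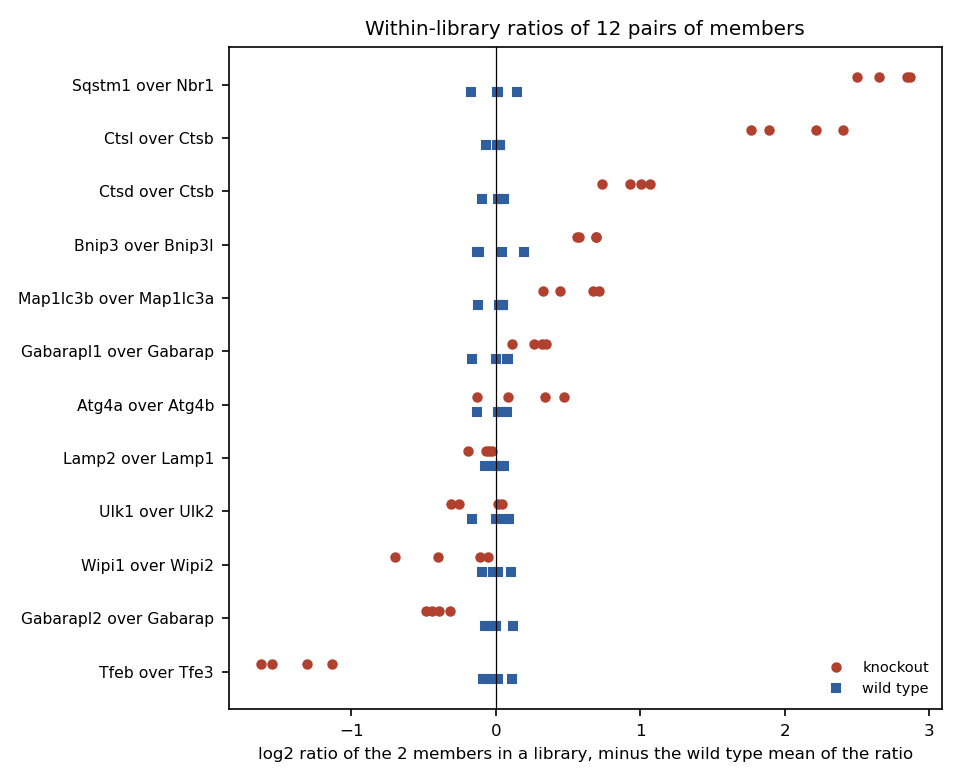
Log2 ratios of 12 pairs of members in each of the 4 knockout libraries (circles) and 4 wild type libraries (squares), each less the wild type mean of that ratio. The ratios of *Sqstm1* over *Nbr1* and *Ctsl* over *Ctsb* are higher and that of *Tfeb* over *Tfe3* is lower in all knockout libraries, while those of *Ulk1* over *Ulk2* and *Lamp2* over *Lamp1* overlap.

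The spread between replicates was larger in knockout, where the median coefficient of variation of the 37 members was 9.45%, against 6.39% in wild type. By role, it was highest for the mitophagy members in knockout, at 11.8%, against 4.93% in wild type.

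**Figure D4:**
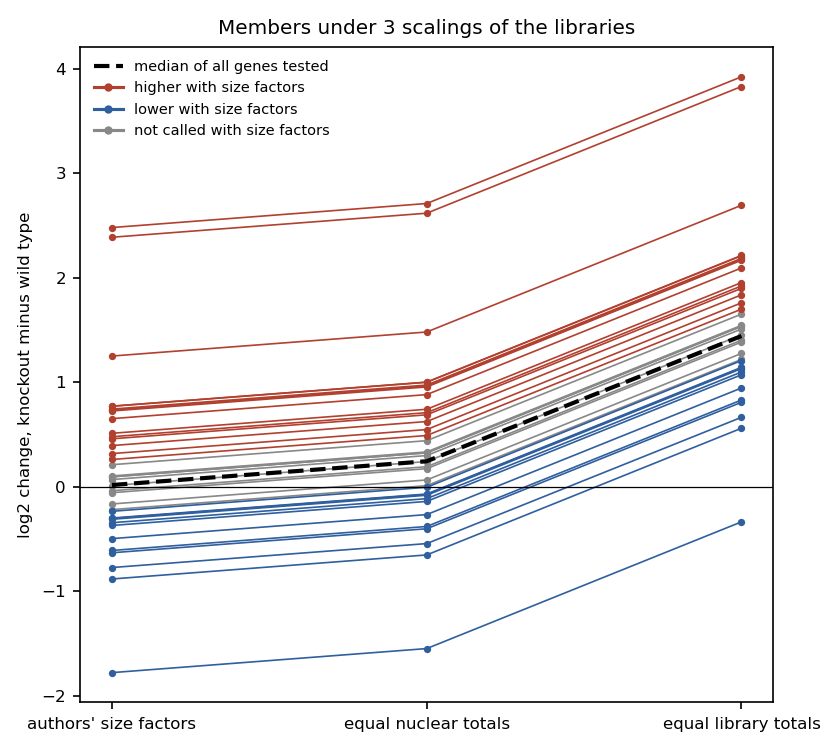
Log2 change, knockout minus wild type, of each member (lines) under the size factors, under equal nuclear totals and under equal library totals, with the median of all genes tested as a dashed line. The members move up together with the median gene, which stands at 0.02, 0.24 and 1.44, and *Pink1* is the only member below 0 under all 3.

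A wider set of pathway genes was read beside the members, in 9 lists with 169 genes, of which 168 were listed in the table and 167 passed the filter. *Tmem55b* was not found under that symbol, and *Lamp3* was below the filter. Of the 167, 85 were higher and 40 lower (74.9% called), with a median change of 0.26. Over all genes tested 59.1% were called, 30.7% higher and 28.4% lower, with a median change of 0.02. Among the 167, equal nuclear totals gave 107 higher and 19 lower, and 81 and 40 relative to that shift of the median gene. By list, that scaling gave 27 higher and 1 lower of the hydrolases, 9 and 0 of the other core genes, 7 and 2 of the other receptors, 5 and 3 of the other mitophagy genes, 13 and 0 of the fusion genes, 9 and 1 of the lysosomal membrane genes and 19 and 5 of the nutrient-sensing genes. It left the counts of the V-ATPase and of the transcription list as given below. The proton pump of the lysosome, the V-ATPase, had 15 of 17 genes higher and 1 lower (94.1% called), with a median of 0.70. *Atp6v1h*, a regulatory subunit of the cytosolic sector, averaged 3985 ± 343 in knockout and 609 ± 32.5 in wild type (SD), a change of 2.71 ± 0.07 (adjusted p = 1.5e-09). *Atp6v1a*, the catalytic subunit, changed by 1.63 ± 0.09, and *Atp6ap2*, an accessory subunit that is also the prorenin receptor, by 1.29 ± 0.10. The lower gene was *Atp6v0a2*, a membrane subunit, at -0.45 ± 0.07.

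Among other lysosomal hydrolases and their cofactors, 24 of 37 were higher and 7 lower, with a median of 0.55. In this list 83.8% were called, against 59.1% of all genes tested. *Ctss*, the gene of cathepsin S, averaged 1470.2 ± 73.2 in knockout and 228 ± 26.5 in wild type (SD), a change of 2.69 ± 0.09 (adjusted p = 5.5e-09). *Ctsk* changed by 2.54 ± 0.23 and *Ctsz* by 1.68 ± 0.10, both cysteine cathepsins as well. Cathepsin S is known as an enzyme of antigen-presenting cells and cathepsin K as one of osteoclasts. Macrophage markers rose beside them, as given above, as did 6 of 10 fibroblast markers, with 1 lower. The part of any cell type in these values was not tested. *Ctsf*, another cathepsin, fell the most in the list, at -0.79 ± 0.07. In the lysosomal membrane list, 6 of 14 tested were higher and 2 lower (57.1% called), with a median of 0.10. Only 1 was lower without knockout replicate 1, 2 or 4 or without wild type replicate 1 or 3, and 3 were without knockout replicate 3. *Cd63*, a tetraspanin of late endosomes and lysosomes, changed by 1.87 ± 0.11 (adjusted p = 2.7e-07), *Clcn7*, a chloride-proton exchanger, by 0.59 ± 0.10 and *Laptm4b* by -0.58 ± 0.07. Of the genes that fuse autophagosomes with lysosomes, 11 of 14 were higher and 1, *Stx17*, was lower (85.7% called), with a median of 0.43. The call of *Stx17*, a SNARE of the autophagosome, was lost without knockout replicate 1, 2 or 4 or without wild type replicate 2, 3 or 4 (changes of -0.31 to -0.21, adjusted p from 0.06 to 0.0914). The largest were *Snap29*, a SNARE partner of syntaxin 17, at 0.83 ± 0.09, *Epg5*, a tether, at 0.81 ± 0.08, and *Plekhm1*, a RAB7 effector, at 0.62 ± 0.09.

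Other core genes had 6 of 16 higher and 4 lower (62.5% called, against 59.1% of all genes tested), with a median of 0.06. *Vmp1*, an endoplasmic reticulum scramblase, changed by 1.27 ± 0.07 (adjusted p = 9.4e-08), *Nrbf2*, a subunit of the Beclin 1 complex, by 0.98 ± 0.10, and *Atg9b*, the paralog of *Atg9a*, by -0.93 ± 0.36. The last passed narrowly (adjusted p = 0.0487), with groups that overlapped, and did not pass without knockout replicate 2, 3 or 4 or without wild type replicate 3 or 4 (changes of -1.01 to -0.64, adjusted p from 0.0601 to 0.133). Other receptors and adaptors had 3 of 11 higher and 2 lower (45.5% called). *Tex264*, a receptor for the removal of endoplasmic reticulum, changed by 1.98 ± 0.06 (adjusted p = 3.9e-09), whereas *Calcoco1* and *Ccpg1*, receptors for the same organelle, changed by -0.59 ± 0.08 and -0.58 ± 0.10. Beside the mitophagy members, 3 of 14 further genes were higher and 6 lower (64.3% called), with a median of -0.12. *Nipsnap2*, a mitochondrial matrix protein that flags damaged mitochondria, averaged 5496 ± 652 in knockout and 16471 ± 255 in wild type (SD), a change of -1.59 ± 0.08 (adjusted p = 6.3e-08). *Mfn2*, a mitochondrial fusion protein that PINK1 phosphorylates, changed by -0.57 ± 0.06 (adjusted p = 2.6e-05). Cardiomyocyte markers fell in the same libraries, with a median change of -1.82, and their part in this was not tested.

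**Figure D5:**
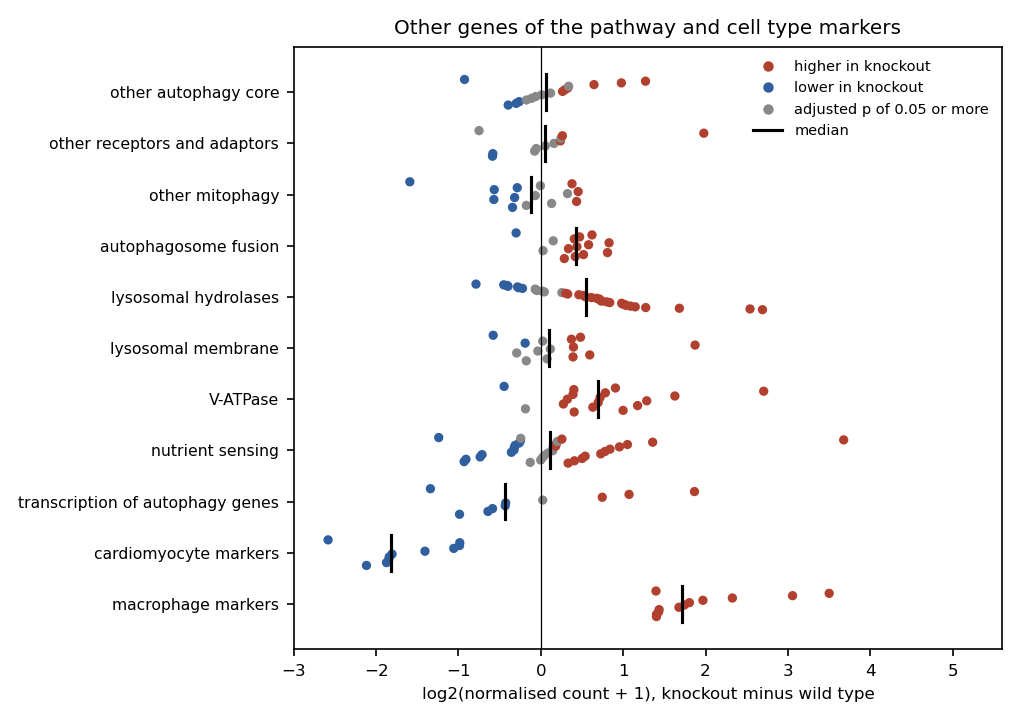
Change in log2(normalised count + 1), knockout minus wild type, for each gene of 9 pathway lists and of the cardiomyocyte and macrophage markers, with the median of each list (black line). The V-ATPase, lysosomal hydrolase and fusion lists have medians of 0.70, 0.55 and 0.43, whereas the cardiomyocyte and macrophage markers lie wholly on opposite sides of 0.

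The genes that sense nutrients and control mTORC1 and AMPK split, with 14 of 34 higher and 11 lower and a median of 0.11. In this list 73.5% were called, against 59.1% of all genes tested. Only 9 of the 34 were higher without knockout replicate 4 or without wild type replicate 1. *Sesn2*, the stress-induced leucine sensor that inhibits mTORC1, averaged 1173 ± 254 in knockout and 89.5 ± 7.75 in wild type (SD), a change of 3.68 ± 0.14 (adjusted p = 1.3e-08). Its paralogs *Sesn1* and *Sesn3* were lower, at -0.93 ± 0.10 and -0.36 ± 0.08. *Ddit4*, another stress-induced inhibitor of mTORC1, changed by 1.36 ± 0.42 (adjusted p = 0.0167) and did not pass without wild type replicate 2 (change 1.181, adjusted p = 0.054), and *Rragb*, a RAG GTPase, by -1.24 ± 0.34 (adjusted p = 0.00929). Of the further regulators of autophagy gene transcription, 3 of 10 were higher and 6 lower (90.0% called), with a median of -0.43. *Mitf*, of the same family as *Tfeb* and *Tfe3*, changed by -1.34 ± 0.12 (adjusted p = 4.1e-06), while *Tfec*, the fourth member of that family, changed by 1.87 ± 0.46 (adjusted p = 0.00501) and averaged 34.4 ± 11.9 in knockout and 9.97 ± 7.12 in wild type (SD, normalised counts). *Tfe3* and *Tfec* were thus higher and *Tfeb* and *Mitf* lower. *Trp53inp1*, a stress-induced protein that binds ATG8 proteins, changed by 1.07 ± 0.32 (adjusted p = 0.0135). *Foxo1*, *Foxo3* and *Foxo4*, forkhead factors known to activate autophagy genes in muscle, were all lower, at -0.43 ± 0.07, -0.64 ± 0.16 and -0.99 ± 0.08.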

How the data were processed

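Hearts of 4 *Rnaseh1* knockout and 4 wild type mice were grouped by their labels. According to the methods and the submitters' processing notes, the authors aligned TruSeq read pairs to mm10 with HISAT2 2.10, realigned mitochondrial pairs without splicing and counted stranded pairs per Ensembl gene with featureCounts 1.6.3. The deposited signal values are gene counts after division by a size factor for each library, which the authors took from DESeq2 1.18.1 in R 3.5.1. Whole read pairs were recovered from them, with 100% of values whole within 0.01. A sheet of the authors' own fold changes and p-values was not used.

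Genes with a mean of at least 10 were tested with limma-trend (limma 3.58.1, R 4.3.3) on log2(value + 1), a scale that understates changes of low genes, with Benjamini-Hochberg adjustment over 17046 genes. Count tests on the recovered pairs used edgeR 4.0.16 (quasi-likelihood, TMM) and DESeq2 1.42.0. The unit proved to be normalised rather than raw, so the count tests stayed alternatives. Ratios of 12 member pairs were tested by exact permutation over 70 assignments. Tests were tried on simulated data. Further alternatives were the pseudocount, the filter, 2 scalings, a replicate block and leaving out each library.

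Library values were named for the 3 called members per role with the largest change and for the members of called pairs, and the 3 called genes per further list with the largest change, except 1 that is not reported here. *Lamp2*, members that were not called, *Atp6v0a2*, *Ctsf*, *Stx17*, *Sesn1*, *Sesn3*, *Foxo1*, *Foxo3* and *Foxo4* were named after their values were seen. The members and lists were chosen with earlier results of these data known. The p-values measure the spread between the 4 samples of a group.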

Additional observations from a re-analysis of the deposited data

Results flagged for a closer look

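Of 98 groups of 4 values examined (37 members and 12 ratios in each genotype), 1 held a library far from the other 3 by Dixon's ratio, where chance alone would give about 1 in 20. *Tfeb* had 635.9 normalised counts in wild type replicate 1, against 568 in the nearest wild type library, a gap of 0.831 of the range of the group. The call of *Tfeb* as lower in knockout held when that library was left out.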

How the results depend on the processing

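Of the 27 member calls, edgeR on recovered pairs, both pseudocounts and a minimum mean of 50 kept 27, and DESeq2 on recovered pairs and a test of every gene above 0 kept 26, losing *Atg4a*. Leaving out 1 library gave 14 to 15 members higher and 11 to 13 lower, with 4792 to 5474 and 4414 to 5030 genes over the transcriptome. The fit with the replicate number as a block lost *Atg4a* (adjusted p = 0.0715) and gave 14 members higher and 12 lower, and 5076 and 4645 of all genes. Samples with the same number did not deviate together (correlations of -0.07 to 0.04), and the labels give no origin that a number shares.

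Equal nuclear totals gave 7 lower members, losing the calls of *Atg2a*, *Atg9a*, *Wipi1*, *Map1lc3b* and *Nbr1* and adding 6 higher ones. Equal library totals, which include mtDNA reads, gave 14952 genes higher and 567 lower, and 36 members higher and 1 lower. That scaling turned the sign of *Ulk1* (0.95), *Ulk2* (1.07), *Pik3c3* (1.40), *Atg14* (1.22), *Atg2a* (1.14), *Atg9a* (1.13), *Wipi1* (1.14), *Atg10* (0.67), *Atg12* (1.28), *Atg16l1* (1.39), *Map1lc3a* (0.56), *Map1lc3b* (1.10), *Nbr1* (1.21), *Fundc1* (0.83) and *Tfeb* (0.81), by its own construction, since the median change of all genes becomes 1.44. Among the named genes of the further lists it turned *Atg9b* (0.43), *Calcoco1* (0.86), *Ccpg1* (0.86), *Mfn2* (0.87), *Laptm4b* (0.86), *Rragb* (0.15), *Mitf* (0.10), *Atp6v0a2* (0.997), *Ctsf* (0.65), *Stx17* (1.14), *Sesn1* (0.51), *Sesn3* (1.08), *Foxo1* (1.01), *Foxo3* (0.80) and *Foxo4* (0.45), and *Nipsnap2* was no longer called (-0.15). Equal nuclear totals lost *Atg9b*, *Stx17* and *Sesn3*, and a test of every gene above 0 and the replicate block lost *Atg9b*. Relative to the shifts, an alternative added after the data were seen, 26 and 27 calls were kept. That alternative restores the centring of the size factors and is not a separate check of it. With 4 against 4 libraries, no ratio can give an exact p below 0.0286, and a sign-flip test of 4 same-numbered differences none below 0.125.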
